A study of Homo sapiens with 12 samples.

Results

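The genes described here are those of glycolysis and of the cell's response to low oxygen, 48 genes in 5 roles: 8 for oxygen sensing, 4 for transport across the cell membrane, 17 glycolytic enzymes, 5 regulators of glycolytic or pyruvate flux and 14 other targets of the hypoxia-inducible factors (HIF). They were found among 54675 probe sets by gene symbol, where the array annotation gave a probe set 1 symbol. Such a probe set was found for 45 of the 48 genes, 112 probe sets in all. SLC16A1, SLC16A3 and CA9 had none and were not analysed here. A filter on dim probe sets (a geometric mean signal under 43.3) took out 17 of the 112, among them the 1 probe set of EGLN2, and left 95 probe sets for 44 genes.

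Transcripts were measured in 293T cells, an established human embryonic kidney line, on 12 oligonucleotide arrays of 1 type. The cells had been transiently transfected with polyethylenimine and were collected 48 hours later, with 4 biological replicates in each of 3 groups. All groups received a plasmid: an empty vector, a vector that expresses the tRNA gene chr1.tRNA68-Gly(GCC), or a vector that expresses the hairpin of CU1276, a small RNA described in the labels as derived from a tRNA. The comparisons ask how expression differed with the tRNA gene or with the hairpin, and between the vectors. No low-oxygen treatment is named, and transient transfection leaves cells without plasmid in the dish, at a share not given in the sources used here. Each array value is thus a mean over all cells, in which fewer cells with a transcript and less of it per cell cannot be told apart.

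Glycolysis splits glucose into pyruvate in the cytosol, and lactate dehydrogenase turns pyruvate into lactate where it is not burned in mitochondria. HIF is a pair of an oxygen-labile alpha subunit (HIF1A or EPAS1) and a constant partner (ARNT). In oxygenated cells the EGLN prolyl hydroxylases mark the alpha subunit and VHL directs it to destruction, so the control of HIF1A acts mainly on its protein and not on its transcript. In low oxygen the pair raises many glycolytic genes and others such as VEGFA, the angiogenic growth factor.

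HIF binds DNA at a core of ACGTG or GCGTG. In RefSeq promoters of GRCh38.p14, from 250 bases before to 50 after the start of a gene, 41 of the 48 genes were matched and 29 of them (70.7%) held at least 1 core on either strand, against 48.4% of all 27305 promoters. VEGFA was not among the matched genes. ACGTG was held by 41.5% of the 41 and 21.6% of all promoters, and GCGTG by 43.9% and 36.3%. Among the glycolytic enzymes 12 of 17 held a core, and among the other HIF targets 9 of 11. A match is a count of letters and shows no binding. The 6 stretches of 60 bases below lie upstream of the start of genes described later, and are shown because they hold cores in a glycolytic enzyme (HK2, ENO1, LDHA, PGK1) or in another HIF target (ANKRD37, P4HA1). They run 5' to 3' on the strand of the gene, capitals mark the cores, read on either strand, and a palindrome that holds ACGTG on both strands was counted once and capitalised over its first letters.
HK2, chr2:74834067-74834126, plus strand: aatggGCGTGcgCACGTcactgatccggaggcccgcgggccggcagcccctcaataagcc
ENO1, chr1:8878699-8878758, minus strand: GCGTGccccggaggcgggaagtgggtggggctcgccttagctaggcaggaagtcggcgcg
LDHA, chr11:18394476-18394535, plus strand: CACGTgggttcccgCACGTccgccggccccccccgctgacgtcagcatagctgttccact
PGK1, chrX:78104037-78104096, plus strand: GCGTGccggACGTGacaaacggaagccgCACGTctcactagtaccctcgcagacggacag
ANKRD37, chr4:185396679-185396738, plus strand: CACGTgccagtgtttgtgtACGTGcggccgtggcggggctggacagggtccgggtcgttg
P4HA1, chr10:73096893-73096952, minus strand: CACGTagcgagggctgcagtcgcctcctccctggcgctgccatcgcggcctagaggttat
Within these stretches LDHA and ANKRD37 each had 2 ACGTG cores, HK2 had 1 of each core and PGK1 had 2 ACGTG and 1 GCGTG. The stretch of ENO1 had a single GCGTG and that of P4HA1 a single ACGTG. The whole promoter window held more in some genes: 2 GCGTG in ENO1, and 2 ACGTG and 1 GCGTG in HK2. LDHA and PGK1 each had 3 ACGTG and 1 GCGTG in it. The promoters of HK1 and PFKM, also described below, held neither core in this window.

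The deposited 2% trimmed mean was 500.1 on each array, which the scaling sets. It does not match the rest of the distribution: array medians lay between 75.9 and 104. Pairs of arrays correlated at 0.925 to 0.959 over tested probe sets, across genes. Of the markers known in 293 cells, 7 of 8 with a probe set passed the filter (NEFL, NEFM, INA, LIN28B, PAX2, EYA1 and WT1, with LHX1 dim), at a summed signal of 13899 to 16468 per array over the groups. Of blood cell markers 0 of 5 passed, and of fibroblast and endothelial markers 5 of 7, at sums of 878 to 1472 with overlapping ranges in the 3 groups. The ratio of the 3' to the 5' GAPDH control probe set, a sign of RNA quality, was 1.33 ± 0.125 in empty vector cells, 1.36 ± 0.129 in tRNA vector cells and 1.35 ± 0.223 in hairpin vector cells (SD, n = 4). Control RNAs of Bacillus, added to the sample, fell into 3 levels that followed the replicate number: they were high on the arrays numbered 1 (1726 to 1834), intermediate on those numbered 2 (331 to 389) and low on those numbered 3 and 4 (20.01 to 26.1). The array of tRNA vector replicate 2 had the highest single signal, 67892, against 37676 to 55470 on the others.

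No member probe set passed an adjusted p of 0.05 in any comparison (limma, Benjamini-Hochberg over all 32768 tested probe sets). Nor did any other probe set: percent called was 0 of all tested probe sets in each comparison, with smallest adjusted p of 1.00 for the tRNA vector against the empty vector, 0.335 for the hairpin vector against the empty vector and 0.236 between the vectors. At an unadjusted p under 0.05, limma had 3, 2 and 6 of the 95 member probe sets in these comparisons, where 3.78%, 2.65% and 3.88% of all tested probe sets (1238, 867 and 1271) passed. The members' shares were 3.16%, 2.11% and 6.32%. Taking the replicate number as a block left 0 members called, and 0, 0 and 6 of all probe sets (0.0183% in the last). Groups that did not overlap, all 4 arrays of a group above or below all 4 of the other, were found for 3, 0 and 3 member probe sets, beside 2.60%, 2.12% and 2.63% of all tested. These shares are near the background, so the members below are described one by one, each by its brightest tested probe set unless another is named. The comparisons share arrays: the tRNA vector arrays enter the first and the last, and the empty vector arrays the first 2. P values measure the spread between these replicates only. An exact permutation p is also given below, from shuffling the arrays of a comparison. Groups without overlap always have 0.0286 in it. There it restates the lack of overlap, which was also a reason to name members, and gives no further support. Its adjustment covers the 3 comparisons of a probe set and not the search over 95.

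**Figure D1:**
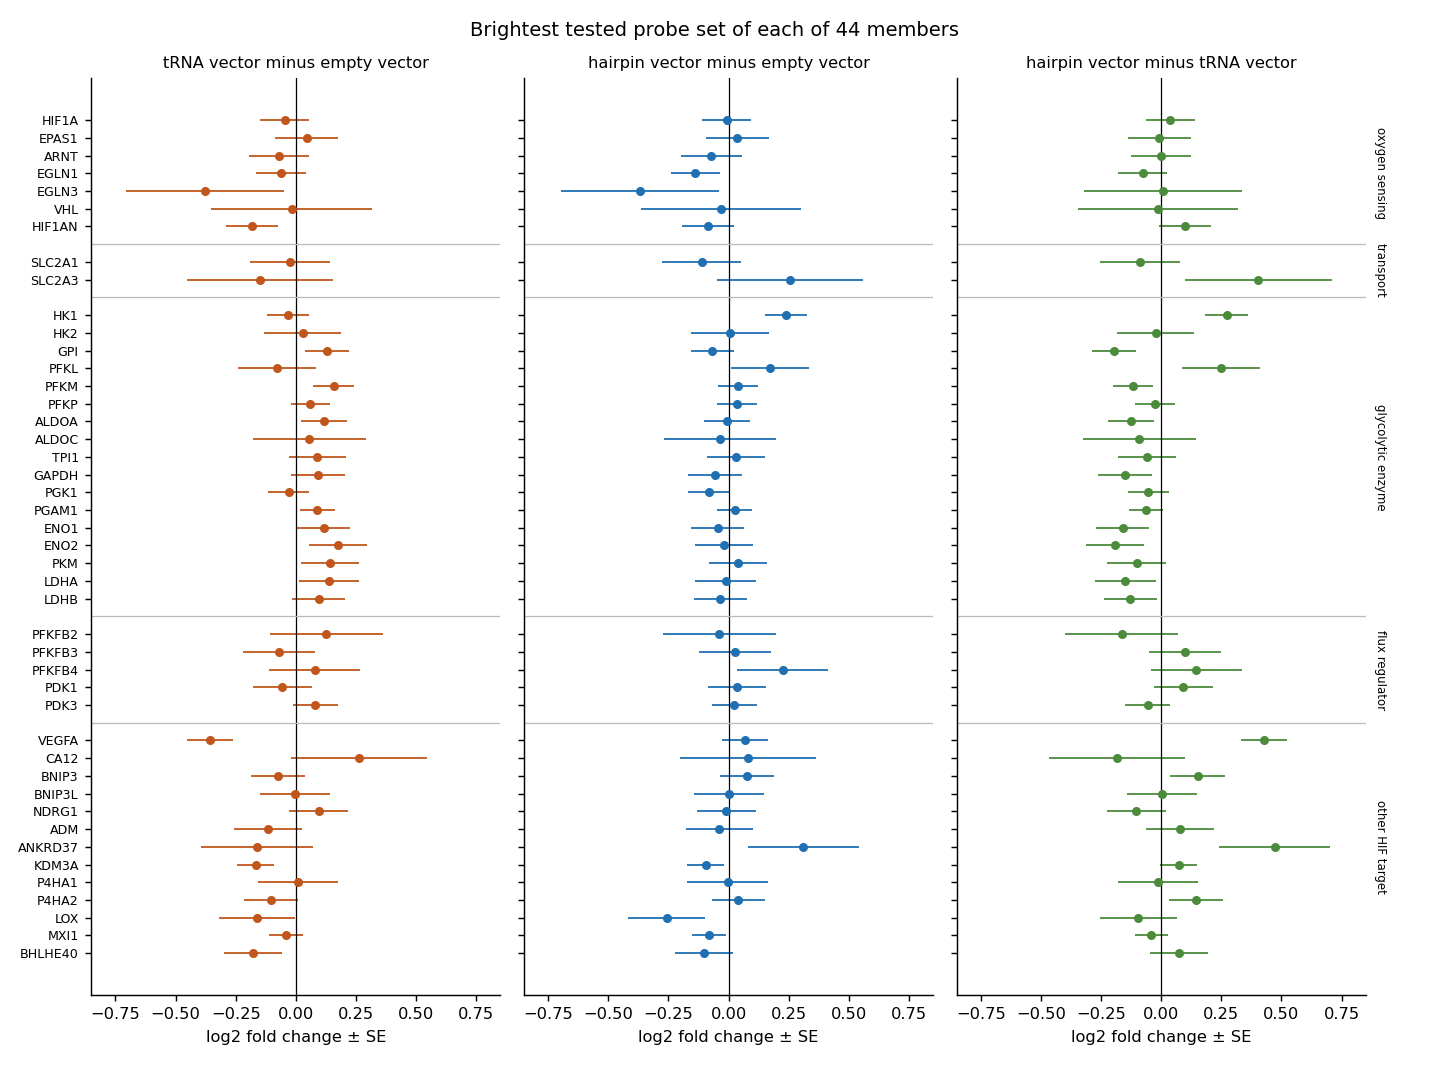
Log2 fold change (x axis, points) with its limma standard error (bars) of the brightest tested probe set of each of 44 members, by role, in the 3 comparisons. Most members lie within 0.2 of zero, EGLN3 and VEGFA (-0.38 and -0.36) lie farthest to the left in the first panel, ANKRD37 and VEGFA (0.47 and 0.43) farthest to the right in the last, and 14 of 17 glycolytic enzymes lie to the right of zero in the first.

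No oxygen sensing transcript passed the test in any comparison. HIF1A, the oxygen-labile subunit, had 7178, 6237, 5809 and 6512 signal units in empty vector cells, 7510, 5598, 6084 and 5826 in tRNA vector cells and 7332, 5947, 6161 and 6165 in hairpin vector cells. The groups overlapped, and the array numbered 1 was the highest in each of them. Its log2 fold change was -0.05 ± 0.10 (SE, n = 4) in tRNA vector cells and -0.01 ± 0.10 in hairpin vector cells against the empty vector. EPAS1 and ARNT, the other HIF subunits, differed from the empty vector by 0.04 and -0.07 in tRNA vector cells and by 0.04 and -0.07 in hairpin vector cells.

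Of the 7 tested sensing genes, 6 were lower than the empty vector on average in both comparisons, by their brightest probe sets. The medians were -0.06 in tRNA vector cells and -0.07 in hairpin vector cells, and 0 passed a limma unadjusted p of 0.05. Over all 13952 tested genes 49.3% and 48.8% were lower. Dimmer probe sets of the sensing genes often went the other way. In each comparison with the empty vector 4 of 9 had the sign of the brightest, beside 53.5% and 52.9% over all genes. There 0 of 4 sensing genes agreed in all probe sets. Between the vectors 6 of 9 had that sign and 2 of 4 genes agreed. The second probe set of EGLN3 stood at 0.73 and 0.95 against the empty vector. It was dim, at a signal of 61.9, with a residual SD between replicates of 0.80 (log2). EGLN1, the main HIF prolyl hydroxylase, had 2610, 2838, 2745 and 2783 in empty vector cells, 3170, 2366, 2598 and 2446 in tRNA vector cells and 2829, 2242, 2589 and 2346 in hairpin vector cells. Its differences of -0.06 ± 0.10 and -0.14 ± 0.10 had limma unadjusted p of 0.555 and 0.197. HIF1AN, the asparagine hydroxylase that blocks HIF's contact with its coactivators, lay between 995 and 1288 in empty vector cells, 880 and 1048 in tRNA vector cells and 964 and 1094 in hairpin vector cells, for a difference of -0.18 ± 0.11 in tRNA vector cells. EGLN3, a hydroxylase that is itself a HIF target, had signals of 63.9 to 191 on the 12 arrays and differences of -0.38 ± 0.33 and -0.37 ± 0.33, so that its error spans most of the shift. VHL, measured at 95.1 to 259, differed by -0.02 ± 0.33 and -0.03 ± 0.33.

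Glucose enters through SLC2A1 and SLC2A3. SLC2A1, the widespread glucose transporter, had means of 380 ± 77.8, 369 ± 14.2 and 350 ± 52.8 (SD, n = 4) with the empty, tRNA and hairpin vector. SLC2A3, a high-affinity glucose transporter, had 261, 170, 231 and 246 in empty vector cells, 174, 115, 289 and 291 in tRNA vector cells and 302, 170, 333 and 301 in hairpin vector cells. The array numbered 2 was the lowest of SLC2A3 in each group. The hairpin vector exceeded the tRNA vector by 0.40 ± 0.30, and all 3 tested probe sets of SLC2A3 had that sign, at 0.40, 1.24 and 0.24, the last 2 of them dimmer and with standard errors of 0.59 and 0.67.

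Among the glycolytic enzymes, HK1 had the smallest unadjusted p in both hairpin comparisons. HK1, the hexokinase of most tissues, which traps glucose as glucose-6-phosphate, had 3213, 3018, 3128 and 3498 in empty vector cells, 3003, 2841, 3281 and 3465 in tRNA vector cells, and 3377, 3759, 3949 and 4109 in hairpin vector cells. Each hairpin array was above the empty and tRNA arrays of its own number, and the ranges overlapped through hairpin vector replicate 1. The difference was 0.24 ± 0.09 from the empty vector (limma unadjusted p = 0.0174, adjusted p = 1.00; exact permutation p = 0.0571, two-sided) and 0.27 ± 0.09 from the tRNA vector (limma unadjusted p = 0.00841, adjusted p = 1.00; exact permutation p = 0.0571). The smallest p that 4 against 4 arrays allow is 0.0286. If arrays of the same number are kept as pairs, the smallest is 0.125, which HK1 had in both. With the replicate number as a block the adjusted p was 0.833 and 0.227. HK1 was measured by 1 tested probe set, so no second one could be set beside it.

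HK2, the hexokinase that HIF is known to raise, gave different pictures by probe set. Its brightest had 950, 1003, 1331 and 1372 in empty vector cells, 1075, 924, 1278 and 1487 in tRNA vector cells and 1080, 1028, 1224 and 1302 in hairpin vector cells, with differences of 0.03 and 0.01 from the empty vector. Its probe set 239410_at, a dimmer one, had 173, 181, 140 and 189 in empty vector cells and 229, 276, 258 and 245 in tRNA vector cells, all 4 arrays higher, for 0.57 ± 0.21 (exact permutation p = 0.0286, limma unadjusted p = 0.0153, adjusted p = 1.00). Kept as same-numbered pairs, those arrays allow no exact p under 0.125. The remaining probe set, 222305_at, had -0.12 ± 0.32 in that comparison. In hairpin vector cells it had 302 to 409 against 125 to 325 in empty vector cells, overlapping by empty vector replicate 1, for 0.71 ± 0.32 (limma unadjusted p = 0.0403, adjusted p = 1.00; exact permutation p = 0.0857). Between the vectors the 3 probe sets had -0.02 ± 0.16, -0.51 ± 0.21 and 0.83 ± 0.32 in the same order, the last 2 at limma unadjusted p of 0.0268 and 0.0197, with opposite signs and overlapping groups.

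The phosphofructokinases set the pace of glycolysis. PFKM, the muscle type, had 2208, 2332, 2214 and 1974 in empty vector cells, 2479, 2483, 2409 and 2343 in tRNA vector cells and 2500, 2238, 2184 and 2054 in hairpin vector cells. All 4 tRNA arrays lay above the empty arrays, by 0.16 ± 0.08 or 1.11-fold (exact permutation p = 0.0286, two-sided, 0.0857 adjusted over its 3 comparisons; limma unadjusted p = 0.0822, adjusted p = 1.00). Kept as same-numbered pairs, these arrays of PFKM had an exact p of 0.125, the smallest that 4 pairs allow. PFKL, the liver type, was measured at 407 to 749 and differed by 0.25 ± 0.16 between the vectors, and PFKP, the platelet type, stayed within 1664 to 1992 with no difference over 0.06 in size.

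GPI, which turns glucose-6-phosphate into fructose-6-phosphate, had 7059, 7956, 7246 and 6962 in tRNA vector cells and 7053, 6538, 6114 and 5822 in hairpin vector cells. The hairpin arrays were lower in 4 of 4 same-numbered pairs, by -0.20 ± 0.09 (limma unadjusted p = 0.0477, adjusted p = 1.00; exact permutation p = 0.0571). Kept as same-numbered pairs, these arrays of GPI had an exact p of 0.125, the smallest that 4 pairs allow. Its limma adjusted p was 0.459 with the replicate number as a block. ENO2, the neuronal enolase, had 624 to 663 in empty vector cells and 657 to 794 in tRNA vector cells, a difference of 0.18 ± 0.12. Both genes fell on the common side of the list: higher in tRNA vector cells than in either other group.

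GAPDH, the dehydrogenase often used as a reference transcript, had 30599, 30715, 28640 and 26264 in empty vector cells, 27256, 37394, 31081 and 28914 in tRNA vector cells and 23530, 33687, 27118 and 28185 in hairpin vector cells. The groups overlapped, and the array numbered 2 was the highest of each. Its differences were 0.09 ± 0.11 and -0.06 ± 0.11 from the empty vector and -0.15 ± 0.11 between the vectors. Its 3 tested probe sets agreed in sign within each of the 3 comparisons. The widest range within a group was that of hairpin vector cells, 23530 to 33687. The 3 GAPDH control probe sets, left out of the fit, went the other way in hairpin against empty vector cells. The 3' one had means of 28089 ± 2922 and 27718 ± 1216 (SD, n = 4). In the other comparisons their means went the same way as the tested ones.

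Counted together, 14 of the 17 glycolytic enzymes were higher in tRNA vector cells than in empty vector cells on average, with a median of 0.09 and a range of -0.08 (PFKL) to 0.18 (ENO2), and 0 passed an unadjusted p of 0.05. With the hairpin vector 8 of 17 were higher than in empty vector cells, with a median of -0.01. Between the vectors 15 of 17 were lower in hairpin vector cells, with a median of -0.10. Over all 13952 tested genes 50.7%, 51.2% and 50.6% were higher in the 3 comparisons, with medians under 0.01.

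Signal strength moved with this count. Of the enzymes, 10 had a geometric mean signal of 5000 and over (GPI, ALDOA, TPI1, GAPDH, PGK1, PGAM1, ENO1, PKM, LDHA and LDHB), and 9 of these 10 were higher in tRNA vector cells. Of all 1111 tested genes in that range, 69.7% were higher in tRNA vector cells, with a median of 0.04. Between the vectors 10 of these 10 enzymes were lower in hairpin vector cells, and so were 840 of the 1111 genes. The enzymes under 5000 had medians of 0.06 and -0.03 in these comparisons. The part of this shift of bright genes in the enzymes' count was not tested.

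The shift was not even over the arrays. Relative to the mean of 12 arrays, the median glycolytic enzyme stood at -0.10, 0.16, 0.10 and 0.04 on the tRNA vector arrays 1 to 4, at 0.02, 0.06, -0.04 and -0.14 on the empty vector arrays and at -0.02, 0.11, -0.04 and -0.12 on the hairpin vector arrays. The groups overlapped, and the tRNA vector array numbered 1 was below the empty vector array numbered 1. The median over enzymes of the tRNA vector against the empty vector was 0.04 without tRNA vector replicate 2 and 0.04 after quantile normalization, and it was 0.15 without tRNA vector replicate 1. Between the vectors it was -0.03 after quantile normalization, -0.06 without tRNA vector replicate 2 or hairpin vector replicate 4, and -0.06 as the mean over the probe sets of a gene.

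**Figure D2:**
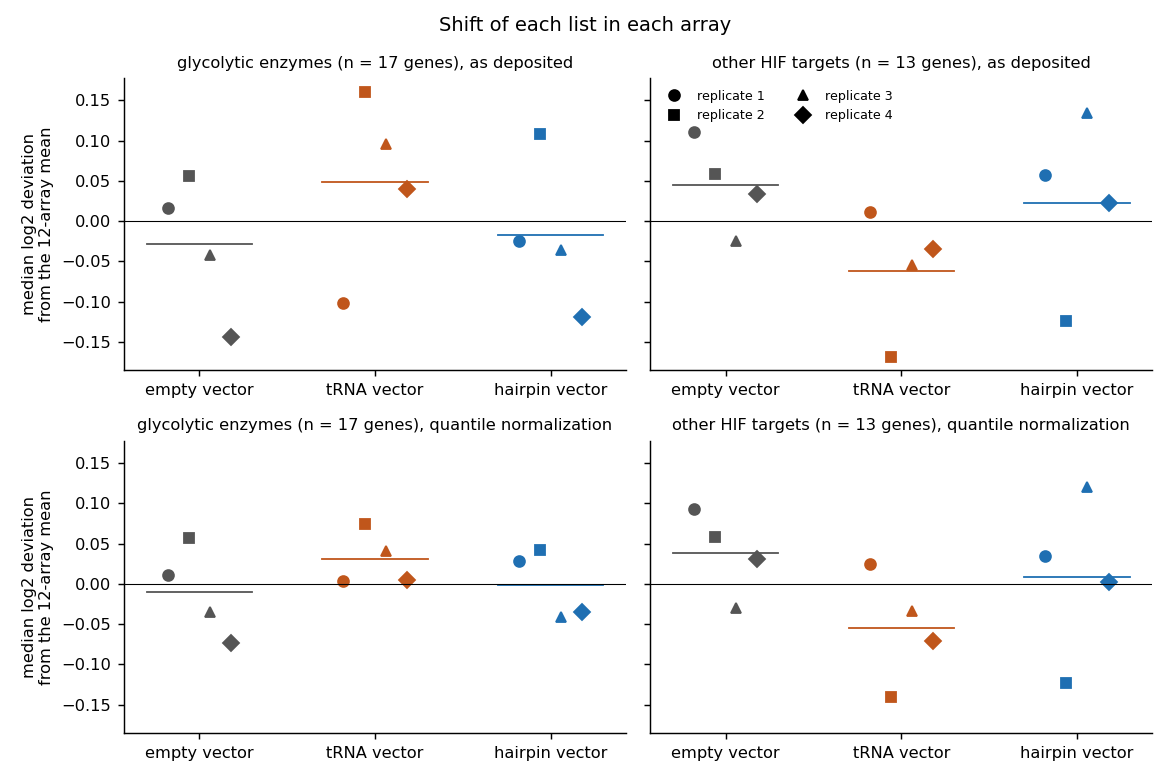
Median log2 deviation from the 12-array mean (y axis) over the glycolytic enzymes (left) and the other HIF targets (right) for each array, by vector group, as deposited (top) and after quantile normalization (bottom); the symbols give the replicate number and the lines the group means. The arrays numbered 2 are the highest for the enzymes in each group, and tRNA vector replicate 2 is the farthest from zero in both lists as deposited.

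By replicate number, some members passed the threshold that none passed by vector. In a model with group and replicate number, a test added after the data had been seen, 21 of 95 member probe sets had an adjusted p under 0.05 for the number (22.1%; limma, Benjamini-Hochberg), against 15.8% of all tested. By brightest probe set these were 10 of 44 members, against 14.0% of all tested genes, and 7 of 17 glycolytic enzymes: HK2, TPI1, GAPDH, ENO1, PKM, LDHA and LDHB. HIF1A, SLC2A3 and P4HA1 were the other three. At signals of 5000 and over the count was 6 of 10 enzymes, where 28.6% of all 1111 such genes passed. Without tRNA vector replicate 2 the counts were 14 of the 95 probe sets, 7 of the 44 members and 5 of the 17 enzymes, beside 10.9% of all genes.

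The direction was not the same in all of them. LDHA, the lactate dehydrogenase subunit that HIF raises, had means of 24190, 29936, 24564 and 22082 on the arrays numbered 1 to 4, and the 3 arrays numbered 2 (27709 to 33482) lay above all 9 others. ENO1, the common enolase, had means of 18295, 23887, 22192 and 21123, and the arrays numbered 1 were the lowest. HK2 had 1035 and 985 on the numbers 1 and 2 against 1277 and 1387 on the numbers 3 and 4, without overlap.

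P4HA1, a catalytic subunit of the prolyl 4-hydroxylase that matures collagen, had 1713, 1377, 1993 and 2026, with the arrays numbered 2 (1306 to 1504) below all others. HIF1A had 7340 on the arrays numbered 1 against 5927, 6018 and 6168. TPI1, the triosephosphate isomerase, had 18856, 21652, 16888 and 16562. The labels do not say what the numbers share. The level of the Bacillus control RNAs moves with them on the same arrays, and its part in these differences was not tested.

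**Figure D3:**
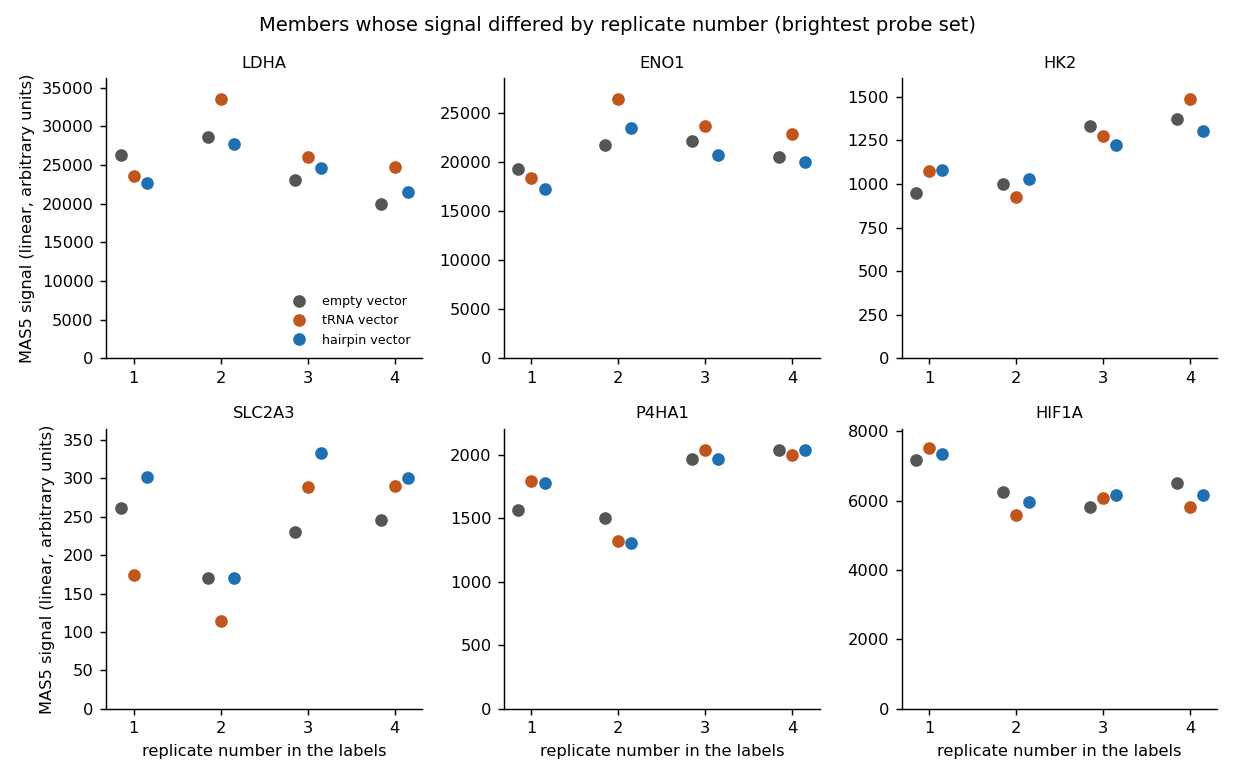
MAS5 signal (y axis, linear, from 0) of 6 members against the replicate number in the labels (x axis); each point is an array, coloured by vector group. LDHA is highest and P4HA1 lowest on the arrays numbered 2, HK2 is higher on the numbers 3 and 4, and HIF1A is highest on number 1, in all 3 groups.

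No regulator of flux passed the test in any comparison. The PFKFB enzymes set the level of fructose-2,6-bisphosphate, which drives phosphofructokinase, and the PDK kinases shut pyruvate out of the mitochondrial pyruvate dehydrogenase. PFKFB4 had means of 314 ± 51.6, 332 ± 56.2 and 368 ± 64.8 (SD, n = 4) with the empty, tRNA and hairpin vector, and PFKFB2 had 246 ± 49.0, 270 ± 61.0 and 242 ± 64.2. PFKFB3, which like PFKFB4 is known to be raised by HIF, had 823 ± 138, 775 ± 34.4 and 842 ± 175. PDK1, a HIF target, had 1727, 1769, 1877 and 1878 in empty vector cells, 1837, 1364, 1916 and 1917 in tRNA vector cells and 2239, 1814, 1767 and 1655 in hairpin vector cells, with differences of -0.06 ± 0.12 and 0.04 ± 0.12. PDK3 differed by 0.08 ± 0.09 and 0.02 ± 0.09 from the empty vector.

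Among the other HIF targets, VEGFA had the smallest unadjusted p of all members, in both comparisons that involve the tRNA vector. Its brightest probe set, 210512_s_at, had 2466, 2597, 2161 and 2568 in empty vector cells, 2036, 1662, 1937 and 2014 in tRNA vector cells and 2426, 2381, 2652 and 2808 in hairpin vector cells. All tRNA vector arrays were below all arrays of both other groups, which overlapped each other. The tRNA vector stood at 0.781 of the empty vector, a log2 difference of -0.36 ± 0.10 (limma unadjusted p = 0.00211, adjusted p = 1.00), and the hairpin vector at 1.34 times the tRNA vector, 0.43 ± 0.10 (limma unadjusted p = 5.07e-04, adjusted p = 1.00). Each had an exact permutation p of 0.0286, the smallest that 4 against 4 arrays allow, and 0.0429 after adjustment over the 3 comparisons of the probe set. This shuffles all 8 arrays; with same-numbered arrays kept as pairs each had 0.125, the smallest that 4 pairs allow, so the call at 0.05 rests on leaving the pairing out.

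Since the groups do not overlap, the sign is fixed in each same-numbered pair and at each level of the control RNAs, and only the sizes vary. At the low, intermediate and high level of the Bacillus control RNAs the tRNA vector differed from the empty vector by -0.25, -0.64 and -0.28, and the hairpin vector from the tRNA vector by 0.47, 0.52 and 0.25. With the replicate number as a block the adjusted p was 0.261 and 0.153. The hairpin vector differed from the empty vector by 0.07 ± 0.10.

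The other 3 tested probe sets of VEGFA did not show this. In the tRNA vector against the empty vector they had 0.10 ± 0.18 (212171_x_at), 0.12 ± 0.30 (210513_s_at) and 0.05 ± 0.25 (211527_x_at), all opposite in sign to the brightest. Between the vectors they had -0.24 ± 0.18, -0.48 ± 0.30 and 0.22 ± 0.25, so 1 of 3 shared its sign. The next brightest, 212171_x_at, had 906, 1176, 1304 and 1319 in empty vector cells, 986, 1176, 1515 and 1386 in tRNA vector cells and 779, 1114, 1113 and 1315 in hairpin vector cells. Its groups overlapped, and the array numbered 1 was the lowest in each.

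Averaged over its 4 probe sets, VEGFA differed by -0.02 in both of these comparisons. The 2 brightest probe sets were also compared by their log2 difference within an array. This uses again the values by which the brightest had been singled out, so its p gives no further support. The dimmer probe sets are not part of it. That difference was 1.07 ± 0.302 in empty vector cells, 0.610 ± 0.302 in tRNA vector cells and 1.27 ± 0.257 in hairpin vector cells (SD, n = 4). It differed by 0.66 between the vectors, with no overlap (exact permutation p = 0.0286, 0.0857 adjusted over 3 comparisons), and by -0.46 between the tRNA and the empty vector (exact permutation p = 0.0857, 0.129 adjusted). The sequences of the probes and the transcripts they match were not used here.

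**Figure D4:**
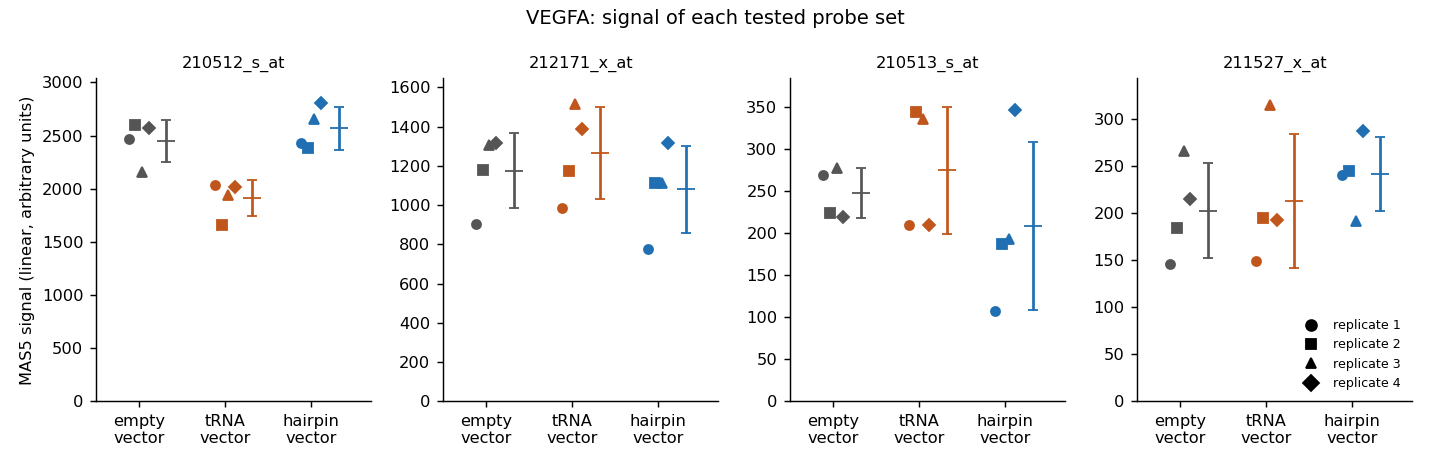
MAS5 signal (y axis, linear, from 0; scales differ) of the 4 tested VEGFA probe sets on each array by vector group, with the mean and SD (n = 4) beside the points; symbols give the replicate number. In 210512_s_at the tRNA vector arrays (1662 to 2036) lie below all others, and in the other 3 probe sets the groups overlap.

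ANKRD37, an ankyrin repeat protein gene known as a HIF target, had 203, 185, 114 and 231 in empty vector cells, 185, 136, 170 and 147 in tRNA vector cells and 187, 226, 239 and 232 in hairpin vector cells. The 4 hairpin arrays lay above the 4 tRNA arrays, by 0.47 ± 0.23 (exact permutation p = 0.0286, 0.0857 adjusted over 3 comparisons; limma unadjusted p = 0.0602, adjusted p = 1.00), with the nearest arrays at 187 and 185. Kept as same-numbered pairs, these arrays of ANKRD37 had an exact p of 0.125, the smallest that 4 pairs allow. Its limma adjusted p was 0.662 with the replicate number as a block. The empty vector arrays overlapped both groups, and the hairpin arrays numbered 3 and 4 were above all of them. KDM3A, a histone demethylase that HIF raises, had 2673, 3175, 3037 and 2812 in empty vector cells and 2691, 2490, 2617 and 2603 in tRNA vector cells, a difference of -0.17 ± 0.08 (limma unadjusted p = 0.0484, adjusted p = 1.00; exact permutation p = 0.0571). Its ranges met at tRNA vector replicate 1.

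LOX, the enzyme that crosslinks collagen, had means of 346 ± 48.1, 308 ± 34.96 and 289 ± 38.2 (SD, n = 4), and its hairpin difference of -0.26 ± 0.16 from the empty vector had a limma unadjusted p of 0.129. P4HA2, the catalytic subunit of another form of the same enzyme as P4HA1, gave different pictures by probe set. Its dimmer probe set 1568611_at, chosen after its values were seen, had all 4 hairpin arrays above the tRNA arrays (171 to 228 against 151 to 171). The difference was 0.31 ± 0.18, and the exact permutation p of 0.0286 is unadjusted and leaves the pairing out. The brightest had overlapping groups and 0.14. The remaining one, 1555027_at, had the opposite sign, at -0.16. BNIP3, the mitochondrial receptor for mitophagy, had means of 2408 ± 211, 2298 ± 341 and 2540 ± 248. Its relative BNIP3L had 1276 ± 101, 1286 ± 228 and 1293 ± 259, and the peptide hormone ADM 847 ± 146, 774 ± 49.4 and 822 ± 120. NDRG1, a gene raised by stress and differentiation, had 1583 ± 139, 1687 ± 42.9 and 1590 ± 281. CA12, a membrane carbonic anhydrase, had 234 ± 72.4, 281 ± 106 and 238 ± 34.7. The transcription factors MXI1 and BHLHE40 differed from the empty vector by -0.04 ± 0.07 and -0.18 ± 0.12 in tRNA vector cells.

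As a list, 10 of the 13 other HIF targets were lower in tRNA vector cells than in empty vector cells on average, with a median of -0.10 and 2 (VEGFA and KDM3A) at an unadjusted p under 0.05. Over all 13952 tested genes 49.3% were lower and 4.26% had such a p, with limma. The median was -0.04 as the mean over the probe sets of a gene, -0.05 without empty vector replicate 4, -0.06 without empty vector replicate 1 and -0.06 without tRNA vector replicate 2. With the hairpin vector 6 of 13 were higher than in empty vector cells, with a median of -0.0042. Between the vectors 8 of 13 were higher in hairpin vector cells, with a median of 0.07, which was 0.05 as the mean over probe sets, 0.01 without hairpin vector replicate 3 and -0.040 without tRNA vector replicate 2. On the last array the median of these targets stood at -0.17, on the other tRNA vector arrays at 0.01, -0.05 and -0.03, and on hairpin vector replicate 2 at -0.12.

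Probe sets of the same gene often disagreed. In 27 members with 2 or more tested probe sets, the 51 dimmer ones had the sign of the brightest in 26, 25 and 34 cases in the 3 comparisons, where 53.5%, 52.9% and 53.3% of such probe sets did so over all genes. Among the other HIF targets the count was 3, 4 and 8 of 13, and among the glycolytic enzymes 12, 13 and 12 of 19. All probe sets of a gene agreed in sign for 6, 8 and 13 of the 27 members (22.2%, 29.6% and 48.1%), where 39.5%, 38.5% and 38.1% of the 7011 such genes did. The 6 in the tRNA vector against the empty vector were SLC2A3, TPI1, GAPDH, LDHB, PDK1 and BNIP3L. In that comparison PFKFB4 (0.08 and -1.21), EGLN3 (-0.38 and 0.73) and ARNT (-0.89 to 0.05) had the widest spans. The values of -1.21, 0.73 and -0.89 came from dim probe sets, at signals of 47.2, 61.9 and 72.0. Their residual SDs between replicates were 1.15, 0.80 and 1.27 (log2), so these spans lie where the measurement is least firm.

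Spread moved with signal. The median residual SD between replicates (log2) was 0.66 for the 21 member probe sets under a signal of 200, 0.26 for the 34 from 200 to 1000, 0.14 for the 22 from 1000 to 5000 and 0.18 for the 18 at 5000 and over. Probe sets bind with different strength, so these signals show how firmly a gene was measured and do not order the genes by expression.

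**Figure D5:**
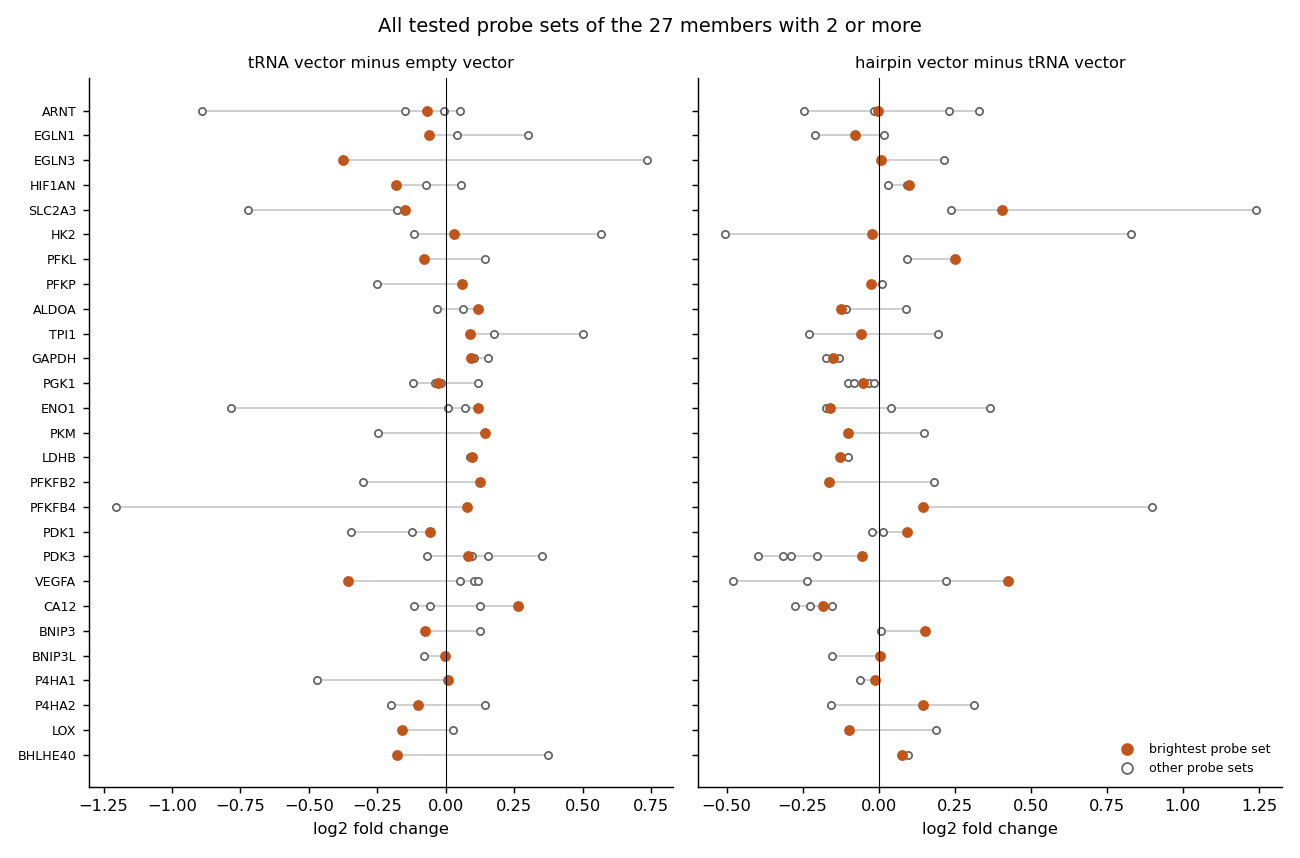
Log2 fold change (x axis) of every tested probe set of the 27 members with 2 or more, for the tRNA vector against the empty vector (left) and the hairpin vector against the tRNA vector (right); filled points are the brightest probe set of a gene, open points the others, and lines span them. VEGFA's brightest probe set lies apart from its other 3 in the left panel, while the 3 probe sets of GAPDH lie within 0.06 of each other there.

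Other genes of these pathways, 62 that are no members, were looked at in the same fit, and 51 had a tested probe set. Of these 27, 24 and 20 were higher in the 3 comparisons, and 0 passed an adjusted p of 0.05. Over all 13952 tested genes 50.7%, 51.2% and 50.6% were higher. At an unadjusted p under 0.05 in limma stood PFKFB1 in tRNA vector cells, at 68.7 to 110 signal units; its mean of 38.9 in empty vector cells is under the filter, so no fold is given. In hairpin vector cells EP300, a HIF coactivator (0.40 ± 0.17), and MPC2, a subunit of the mitochondrial pyruvate carrier (0.18 ± 0.08), stood under 0.05 against the empty vector. Between the vectors 0 of the 51 did. The shares of the 51 under 0.05 in limma were 1.96%, 3.92% and 0%, beside 4.26%, 2.74% and 4.56% of all tested genes. They are near that background, so the genes are listed only.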

How the data were processed

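For each array the authors deposited linear signal intensities, 1 per probe set. MAS5 is named, without a version, in the submitters' processing notes, and build and annotation version are not given in the sources used here. The authors' scaling shows in the equal 2% trimmed mean. Gene symbols came from the platform annotation, checked by Entrez identifier against a RefSeq table (0 changed, 42 not found). Of 54675 probe sets, 41097 had 1 symbol, 1801 several and 11777 none; 4 with several symbols that name a member were not used, and 62 controls were left out. The number of arrays limits the precision.

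The log2 of each signal was used, with nothing added. Probe sets whose log2 signal averaged below the 40th percentile were left out, leaving 32768. Means of 3 groups were fitted to 12 arrays with limma 3.58.1 in R 4.3.3 (eBayes with an intensity trend, two-sided), and p values adjusted by Benjamini-Hochberg. The fit was tested on simulated data with independent noise on each array, which does not cover differences by replicate number. A gene is represented by its brightest tested probe set with 1 symbol. For a single value the 8 arrays of a comparison were permuted exactly, two-sided; an exact test of the 4 same-numbered pairs was added after the data had been seen. Fold changes are log2 unless named otherwise, ± after one is its limma SE, and ± after a signal is the SD. Value columns that match no sample numbered 0.

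Named were VEGFA, HIF1A and GAPDH, the 2 members of each of the 5 roles with the smallest unadjusted p in each comparison, and members whose arrays did not overlap; other members are given by mean, range or count. HK2, P4HA2 and the members described by replicate number were chosen after their values were seen. Members, lists and the blocks were chosen with earlier results of these data known.

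Samples with the same number deviated together in all 4 pairs of both hairpin comparisons, so the numbers could be read as pairs there. The correlations were 0.108 to 0.333 with the empty vector and 0.113 to 0.356 with the tRNA vector. The main limma fit and the exact permutation left this pairing out in every comparison. The replicate number entered as a block in an alternative fit, and the pairs entered the added exact test. Arrays numbered 3 and 4 also correlated across numbers (0.0930 to 0.148), and empty vector replicate 3 correlated more with hairpin vector replicate 4 (0.148) than with its own number (0.124). In the tRNA against the empty vector 1 pair was at 0.0987, under the limit of 0.1. Alternatives were quantile normalization, median centring, other filters, an offset of 16, no trend, 2 groups only, both blocks, leaving out each array, and the mean over the probe sets of a gene.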

Additional observations from a re-analysis of the deposited data

Results flagged for a closer look

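In groups of 4 arrays, 5 of the 60 tested held 1 array far from the other three by Dixon's ratio, where chance gives about 1 in 20. HIF1AN had 1288 on empty vector replicate 2, against 995 to 1039 on the others of its group. SLC2A3 had 170 on hairpin vector replicate 2, against 301 to 333. PDK1 had 1364 on tRNA vector replicate 2, against 1837 to 1917. PFKFB2 had 179 on tRNA vector replicate 3, against 292 to 305. LOX had 360 on tRNA vector replicate 3, against 289 to 293. Their cause was not tested.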

How the results depend on the processing

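In all 21 alternative settings of each comparison 0 members were called. Over all probe sets the count rose from 0 with the control RNA level as a block, to 4 (tRNA against empty vector), 3 (hairpin against empty vector) and 8 (between the vectors), and with the replicate number as a block to 6 between the vectors; the replicate block changed no other call. Leaving out 1 array gave 0 calls each time. The glycolytic median then ranged over 0.04 to 0.15, -0.04 to 0.03 and -0.13 to -0.06 in the 3 comparisons, and that of the other HIF targets over -0.13 to -0.05, -0.06 to 0.07 and -0.040 to 0.10. The value of -0.040, between the vectors without tRNA vector replicate 2, turned the sign of the median; the cause was not tested. As the mean over the probe sets of a gene the median of the other HIF targets was -0.04, -0.04 and 0.05. Of 69 named fold changes 33 kept their sign in every setting and 36 turned in at least 1. In 12 of 1482 settings a named value moved by more than the spread between replicates, each time with the mean over probe sets, and 0 reached an adjusted p of 0.05. By replicate number, 21 member probe sets became 16 with quantile normalization and 25 with median centring (all probe sets 5190, 4925 and 5942), and without tRNA vector replicate 2 they were 14 (all probe sets 4338).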
